A study of Homo sapiens with 4 samples.

Results

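The end of the long arm of chromosome 1, band 1q44, carries HNRNPU, the gene that encodes SAF-A itself, and its SAF-A peaks were examined in mitotic and asynchronous RPE1 cells. SAF-A (scaffold attachment factor A, also called hnRNP U) is an abundant nuclear protein that binds RNA through one end and DNA through the other. It is known for tethering RNA to chromatin in interphase nuclei, and for being released from chromosomes when cells enter mitosis. RPE1 is an immortalised human retinal pigment epithelial line, here of wild-type genotype. CUT&Tag uses an antibody, here against SAF-A, to bring a transposase to the chromatin that carries the protein, and sequences the DNA cut out there. Replicates 3 and 4 of cells synchronised in mitosis, and replicates 3 and 4 of asynchronous cells, made up the 4 libraries, each from 100000 cells with 1 pg of E. coli DNA added. The sources used here give neither the way of synchronising the cells nor whether replicates were separate cultures, so the spread between replicates may be technical.

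Peaks were members when their summit lay on chromosome 1 from 243000001 to 248100000 of the hs1 assembly, an interval of 5.1 Mb. There were 777 such peaks of 371353 in the 4 lists: 147 and 226 in mitotic replicates 3 and 4, and 222 and 182 in asynchronous replicates 3 and 4. The interval was chosen on measured values: its 1 Mb window from 245000001 to 246000000 had been among the windows with the largest mitotic to asynchronous difference in peak coverage over the genome. All differences between the cell states below are therefore a description and carry no test. The stretch of chromosome 1 just before it, from 230000001 to 243000000, served as the comparison, with 381, 603, 524 and 383 peaks in the same order of libraries.

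The definition of the interval places HNRNPU near 244.3 Mb. That value is approximate and was not checked against hs1 genes. The HNRNPU position below means that point, and distances from it are not distances to the gene. RefSeq on GRCh38.p14, another assembly, was used for the order of genes alone. There, 65 protein-coding genes follow HNRNPU to the end of the chromosome. Those nearest to it include KIF26B, a kinesin family gene, and SMYD3, a lysine methyltransferase gene. TFB2M, a mitochondrial transcription factor gene, and AHCTF1, whose product helps to rebuild nuclear pores after mitosis, lie further on, followed by 5 zinc finger genes and the inflammasome gene NLRP3. The distal part holds 43 olfactory receptor genes, such as OR2T8 and OR2L13, which encode odorant receptors of nasal sensory neurons. No peak was assigned to any of these genes, since their hs1 positions were not used here.

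Depth differed within both states. The genome background, the lowest local background of a list and a measure of relative depth, was 1.17 and 1.79 fragments in the mitotic libraries and 1.38 and 1.17 in the asynchronous libraries. The lists held 78900 and 114838 peaks on the nuclear chromosomes in mitotic and 101124 and 76460 in asynchronous cells, covering 28.6 and 44.9 Mb against 35.8 and 25.9 Mb. Values were therefore scaled to the total of their library. Narrowest peaks were 183 and 182 bp in the mitotic lists, against 174 and 169 bp in the asynchronous lists.

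SAF-A peaks were unevenly spread along 1q44, and their layout was similar in all 4 libraries. Of 51 bins of 100 kb, 7 held no summit in any library. The bin from 246100001 held 9 and 15 summits in mitotic and 12 and 11 in asynchronous cells, the most of any bin over the libraries. Next was the bin from 244200001, beside the HNRNPU position, with 9 and 16 against 10 and 11 summits. Peak-rich sequence thus stood on both sides of a sparser stretch, where the bin from 244800001 held 2 and 2 summits in mitotic and 5 and 2 in asynchronous cells. In the first 4 windows of 1 Mb, in order from the start of the interval, the libraries together held 84, 215, 211 and 259 summits. Among 3000 windows of the genome with a summit these counts lay at the 50.7, 77.1, 76.8 and 83.0 percentiles, against a median of 82 summits per window.

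**Figure D1:**
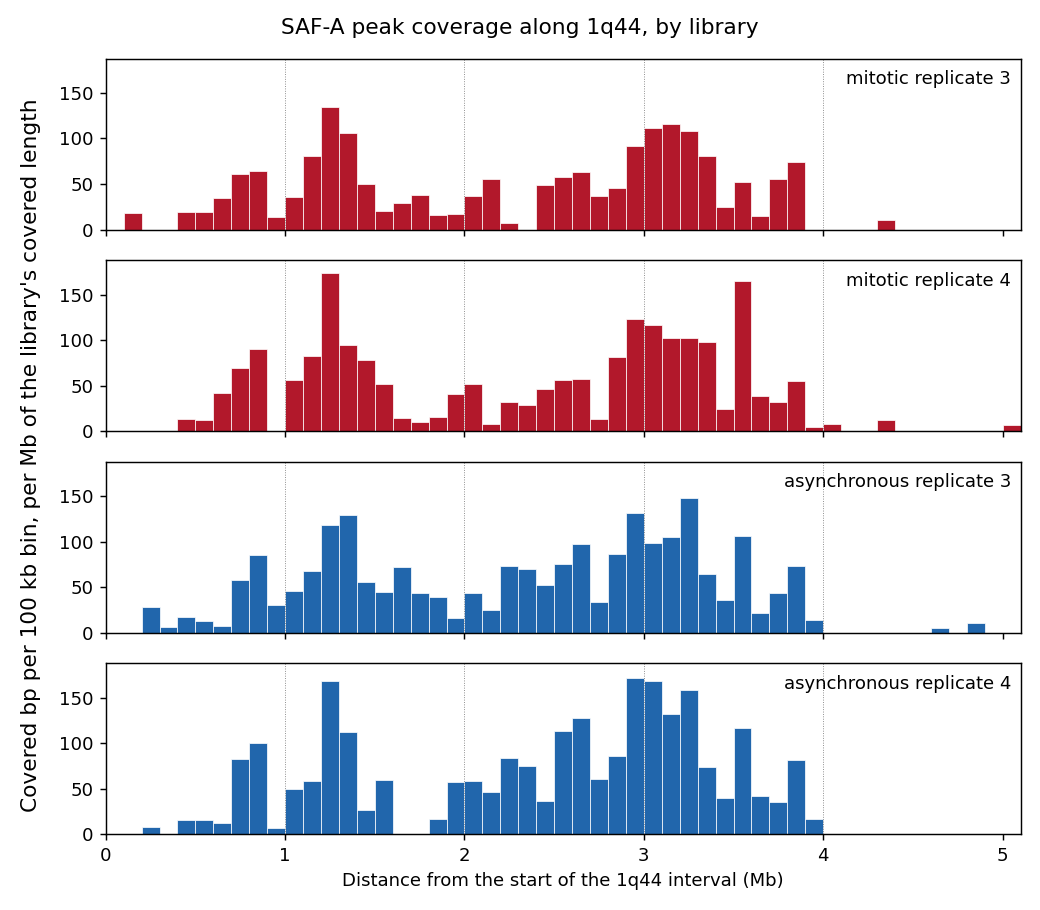
Each panel is a library, mitotic above asynchronous, and each bar is the peak length with its summit in a 100 kb bin of 1q44, in bp per covered Mb of that library, by distance from the start of the interval in Mb. All 4 libraries show coverage clusters near 1.2 and 3 Mb and almost none beyond 4 Mb; mitotic replicate 3 has no summit in the bin at 2.3 Mb, where the asynchronous libraries reach 70.0 and 74.9.

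The distal 1.21 Mb of the interval was nearly free of SAF-A peaks in both states. Past the last region with a peak in all 4 libraries, from 246891393 to 248100000, there were 1 and 6 summits in mitotic and 6 and 1 in asynchronous cells. That was 0.827 and 4.96 summits per Mb against 4.96 and 0.827, while the rest of the interval had 37.5 and 56.5 in mitotic and 55.5 and 46.5 summits per Mb in asynchronous cells. The 2 libraries with the most peaks, one of each state, thus held 6 summits there, and the other two held 1. Those 14 peaks formed 13 regions, of which 1 had a peak in more than 1 library. It spanned 247332312 to 247332612, with summits of 11 and 14 fragments in the mitotic libraries and no peak in asynchronous cells. The widest stretch without a summit in any library ran over 345 kb, from 247337118 to 247681831. In the window from 247000001 to 248000000 the 4 libraries held 7 summits in all, and 10.8% of the 3000 genome windows held as few or fewer. A list reports only peaks that passed its threshold, so these counts do not show that SAF-A was absent.

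Over the whole interval, mitotic libraries had a smaller share of their peaks in 1q44 than asynchronous libraries. The interval held 1.86 and 1.97 of every 1000 nuclear summits in mitotic libraries, against 2.20 and 2.38 in asynchronous libraries. Both mitotic values were below both asynchronous ones. Among peaks with a deposited -log10 q of at least 5 the groups overlapped, at 1.99 and 2.15 per 1000 such peaks in mitotic against 2.31 and 1.99 in asynchronous libraries. Over all peaks, means were 1.92 ± 0.0742 and 2.29 ± 0.131 (SD, n = 2 each), a difference of -0.26 log2 units. As a share of all peaks with its 95% Wilson interval, which covers counting error alone, this was 0.186% (0.159% to 0.219%) and 0.197% (0.173% to 0.224%) in mitotic libraries. In asynchronous libraries it was 0.220% (0.193% to 0.250%) and 0.238% (0.206% to 0.275%). Peaks of the interval covered 1851 and 2108 bp per Mb of covered length in mitotic and 2293 and 2510 bp in asynchronous libraries, with means of 1980 ± 182 and 2401 ± 154 (SD, n = 2 each; -0.28 log2 units). With any 1 library left out, the coverage difference lay between -0.37 and -0.19 log2 units. Without scaling, the interval covered 53.0 and 94.6 kb in mitotic and 82.1 and 65.0 kb in asynchronous libraries, and the groups overlapped.

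The stretch before the interval showed no such separation. It held 4.83 and 5.25 of every 1000 summits in mitotic and 5.18 and 5.01 in asynchronous libraries, and 4918 and 5094 against 5107 and 4889 bp per Mb of covered length. Set against that stretch within the same library, the interval had 0.376 and 0.414 times its covered length in mitotic and 0.449 and 0.513 times in asynchronous libraries. Since the coverage of that stretch was nearly equal in both states, the difference set against it was bound to be about as large (-0.28 log2 units).

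Most of the difference lay in 1 window. From 245000001 to 246000000, peaks covered 12.7 and 22.4 kb in mitotic and 24.7 and 22.2 kb in asynchronous libraries. Scaled, this was 443 and 499 bp per Mb of covered length in mitotic libraries, against 689 and 858 in asynchronous libraries. The means were 471 ± 39.1 and 773 ± 120 (SD, n = 2 each), or -0.71 log2 units, with both mitotic libraries below both asynchronous ones. Summits numbered 36 and 55 in mitotic and 59 and 61 in asynchronous libraries, although mitotic replicate 4 was the deepest library. Leaving out 1 library at a time gave -0.87 to -0.55 log2 units for coverage. This window's coverage is what led to the choice of the interval.

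The neighbouring windows were closer between the states. From 243000001 to 244000000 the scaled coverage was 229 and 227 bp per Mb in mitotic and 246 and 241 in asynchronous libraries, a small gap without overlap. The window from 244000001, which holds the HNRNPU position, had 530 and 617 against 631 and 548 bp per Mb, and the groups overlapped. The window from 246000001 had 638 and 739 against 711 and 863 bp per Mb, again with overlap, while its summits, at 0.634 and 0.679 per 1000 in mitotic against 0.692 and 0.798 in asynchronous libraries, did not overlap. In the last window, from 247000001 to 248100000, coverage was 10.3 and 26.3 bp per Mb in mitotic and 15.7 and 0 in asynchronous libraries. Without the window from 245000001, the interval's coverage was 1407 and 1610 bp per Mb in mitotic and 1604 and 1652 in asynchronous libraries (-0.11 log2 units). By coverage the groups then overlapped, since mitotic replicate 4 was above asynchronous replicate 3. By summits they did not, with 1.41 and 1.49 of every 1000 in mitotic against 1.61 and 1.58 in asynchronous libraries (-0.14 log2 units).

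**Figure D2:**
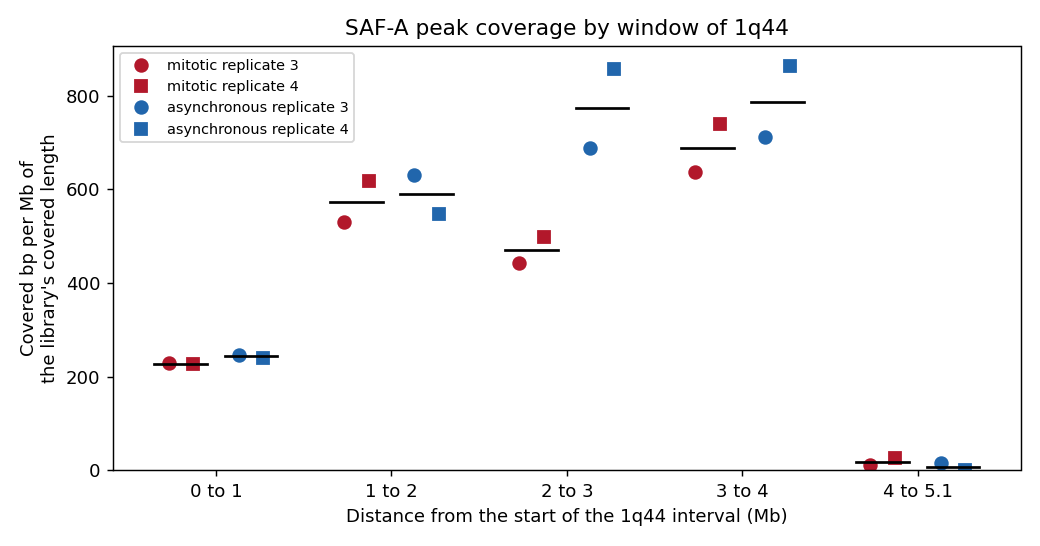
Points are the covered length in each library, in bp per Mb of its total covered length, for 5 windows of 1q44 given by distance from its start in Mb; black lines are group means, with mitotic left of asynchronous. In the window from 2 to 3 Mb the mitotic libraries (443 and 499) lie below the asynchronous libraries (689 and 858).

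Relative to their libraries, both strong and weak peaks were fewer in mitotic cells in that window. Peaks with a deposited -log10 q of at least 5 numbered 9 and 19 in mitotic and 21 and 14 in asynchronous libraries, which was 0.426 and 0.497 per 1000 such peaks of the library against 0.809 and 0.681. Weaker peaks numbered 27 and 36 against 38 and 47, or 0.467 and 0.470 per 1000 against 0.506 and 0.841. For the weaker peaks, the gap to asynchronous replicate 3 was small. In the next window, from 246000001, the stronger peaks went the other way, with 0.852 and 0.916 per 1000 in mitotic and 0.732 and 0.681 in asynchronous libraries. There the weaker peaks stood at 0.554 and 0.561 against 0.679 and 0.841. With peaks of -log10 q of at least 5 alone, the coverage difference was -0.87 log2 units in the window from 245000001 and -0.08 over the whole interval.

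The peak caller's local background also differed in the window from 245000001. It was more than 1% above the genome background at 55.6% and 60.0% of the peaks in mitotic libraries, against 81.4% and 85.2% in asynchronous libraries. Its median was 1.05 and 1.07 times the genome background in mitotic and 1.29 and 1.26 times in asynchronous libraries. In the window from 246000001 those medians were 1.64 and 1.63 against 1.71 and 1.65 times. Fewer peaks thus went with a lower caller's background at the peaks that were called. The sources do not say whether that background came from a control library or from the same fragments as the peaks. The number of peaks and the background need not be separate observations. Whether the caller's background set the number of peaks was not tested.

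Among bins of 100 kb, more had lower than higher coverage in mitotic cells. Of the 38 bins with a peak in at least 2 libraries, both mitotic libraries were below both asynchronous ones in 12, where 16% of all 19500 such bins of the genome did so. Both were above in 4, against 17.9% of all bins. The window from 245000001 held 6 of the 12, and the other 28 bins had 6 below and 4 above. The median log2 difference was -0.21 over the 38 bins and 0.02 over all bins, on the scale of the value plus 10 bp per Mb. The stretch before the interval had 16 bins below and 20 above of 92, with a median of -0.04. With peaks of -log10 q of at least 5 alone, 8 bins were lower and 7 higher of 27, where 16.1% and 17.4% of the genome's bins were so. Since the interval was picked on this contrast, nothing is read from these shares.

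Among the bins with the largest differences, the bin from 245300001 had 0 and 5 summits in mitotic and 5 and 3 in asynchronous libraries, and its coverage averaged 14.4 ± 20.4 against 72.5 ± 3.42 bp per Mb (SD, n = 2 each; -2.07 log2 units). Beside it, the bin from 245200001 had 1 and 5 against 6 and 7 summits, and 20.0 ± 17.4 against 78.2 ± 7.47 bp per Mb (-1.69). In both, the spread between mitotic libraries was wide, and mitotic replicate 4 was closer to the asynchronous values. The mitotic libraries were closer to each other in the bin from 245600001, with 4 and 5 against 8 and 10 summits and 60.2 ± 4.19 against 113 ± 21.1 bp per Mb (-0.80). Near the ends of the peak-rich part, the bins from 243200001 and 246900001 had 0 and 0 against 3 and 1 summits, and 0 and 1 against 2 and 1.

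In the other direction stood 4 bins. The bin from 243600001 had 4 and 5 summits in mitotic and 1 and 1 in asynchronous libraries, with 38.4 ± 5.18 against 9.32 ± 3.59 bp per Mb (SD, n = 2 each; 1.33 log2 units). In the distal 1.21 Mb, the bin from 247300001 had 1 and 2 summits in mitotic and none in asynchronous libraries. The bins from 244100001 and 246300001 were higher by 0.34 and 0.32, with 81.6 ± 0.508 against 62.8 ± 6.58 and 88.9 ± 12.3 against 69.1 ± 6.69 bp per Mb (SD, n = 2 each). The bin from 244300001, at the HNRNPU position, had 107 and 94.5 bp per Mb in mitotic and 129 and 112 in asynchronous libraries, a difference of -0.24.

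Peaks of the 4 lists that shared at least 1 bp merged into 516 regions in the interval. Among them, 372 (72.1%) came from 1 library, 78 from 2, 24 from 3 and 42 (8.14%) from all 4. Over the nuclear genome 8.38% of 242505 regions were in all 4, and 8.34% of 1259 in the stretch before. By window from the start of the interval, 4, 8, 12, 18 and 0 regions were in all 4 libraries. Thus the window with the largest difference in coverage still held 12 regions found in every library. Around the HNRNPU position, 46 regions began within 100 kb, of which 5 were in all 4 libraries. The nearest of those ended 18.9 kb before that approximate position, from 244280506 to 244281089. Its distance to the gene itself is not known.

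The strongest shared regions were strong in every library. The region from 245942520 to 245942921 (402 bp) ranked first, with 86 and 114 fragments at its summit in mitotic and 108 and 105 in asynchronous libraries, at or above the 99.7 percentile of each list. Divided by the library's median over regions in all 4, its height was 3.88 ± 0.598 in mitotic and 4.66 ± 0.481 in asynchronous cells (SD, n = 2 each; -0.27 log2 units). The second, from 245986865 to 245987842, had 66 and 105 against 87 and 84 fragments, or 3.24 ± 0.0836 against 3.74 ± 0.368 times the median (-0.20). Both lay in the window from 245000001, so its highest summits were present in mitotic cells, at a lower mean relative height. The gap between the states was narrow. In the first region mitotic replicate 3 had 4.30 times the median and asynchronous replicate 3 had 4.32. In the second these libraries had 3.30 and 3.48 times the median. The third, from 244250745 to 244252649, lay 47.4 kb before the HNRNPU position. It had 64 and 86 against 88 and 73 fragments, at 2.90 ± 0.420 against 3.50 ± 0.0310 times the median (SD, n = 2 each; -0.28).

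The other 7 of the 10 highest were mostly lower in mitotic cells as well. The region from 243868019 had 41 and 78 fragments in mitotic and 83 and 59 in asynchronous libraries (-0.47 log2 units relative to the median). From 244068625 there were 42 and 80 against 76 and 58 fragments (-0.36), and from 246222058 there were 41 and 80 against 60 and 57 (-0.20, groups overlapping). The region from 246029709 had 38 and 65 against 73 and 51 fragments (-0.46), and that from 244386222 had 32 and 59 against 55 and 55 (-0.51). Higher in mitotic cells were the regions from 246362624, with 48 and 79 against 56 and 40 fragments (0.21), and from 245925891, with 42 and 65 against 45 and 32 (0.30). The region from 245925891 began 16.6 kb before the strongest region, whose difference was negative.

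Over all 42 shared regions, relative summit heights were lower in both mitotic libraries in 17, where 20.2% of the 20334 shared regions of the genome were so. In 4 they were higher in both, against 17.1% over the genome. The median difference was -0.14 log2 units, against -0.02 over all shared regions, and smaller than the spread between replicates (SD 0.18). It was -0.07 without asynchronous replicate 3 and -0.22 without asynchronous replicate 4. The difference was negative in 23 of 42 (54.8%), close to the 52.5% of all shared regions of the genome. Its range over the 42 ran from -0.77 to 0.74. By window from the start of the interval, the median was -0.04, -0.31, -0.33 and 0.04. The extremes had few fragments. The region from 245803762 to 245805103 had 11 and 12 fragments in mitotic and 18 and 17 in asynchronous libraries, and the region from 246545803 to 246546767 had 18 and 31 against 16 and 10. These shares come from the contrast that chose the interval, and the regions had to pass the peak caller in every library.

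**Figure D3:**
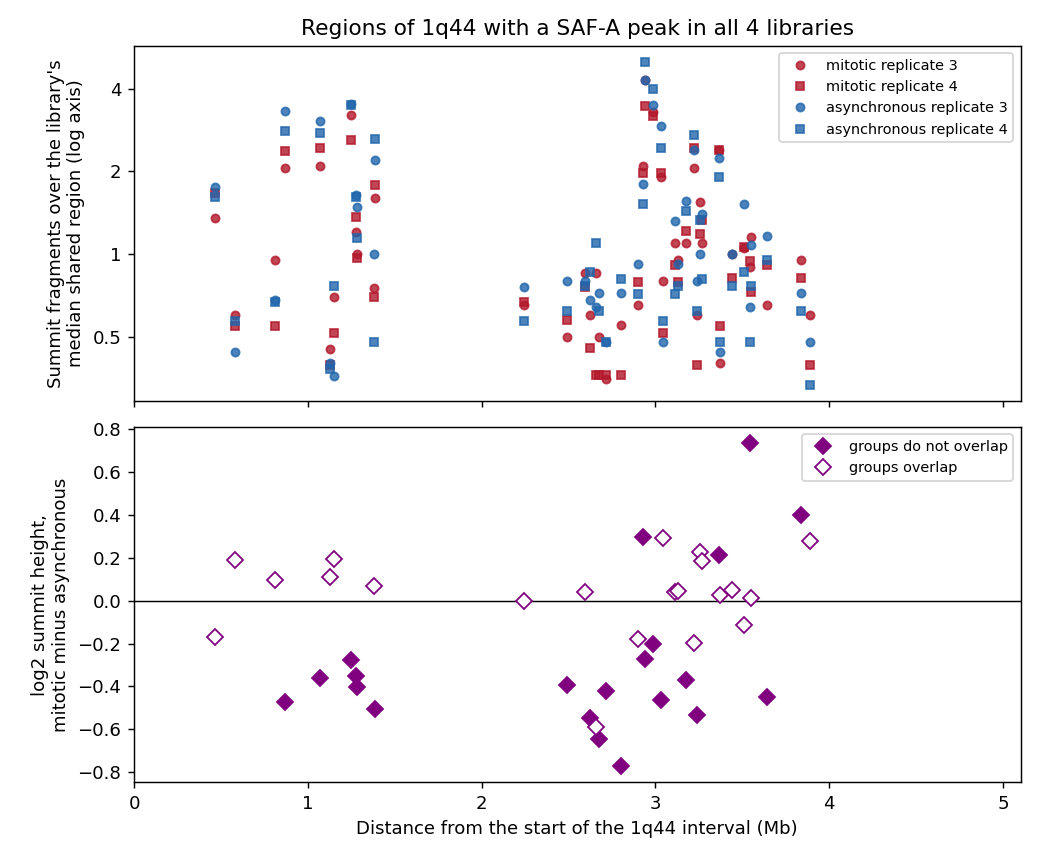
The upper panel gives the summit fragments of the 42 regions of 1q44 with a peak in all 4 libraries, over the library's median for such regions of the genome, on a log axis; the lower panel gives their log2 difference, mitotic minus asynchronous, with filled symbols where the groups do not overlap. Of the 12 regions from 2 to 3 Mb, 10 lie below 0, where 52.5% of the genome's shared regions do. The coverage of that window led to the choice of the interval. The range over all 42 is -0.77 to 0.74.

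Regions found in both libraries of one state and neither of the other were few. There were 15 mitotic-only regions (2.91% of the interval's regions) and 9 asynchronous-only regions (1.74%), where the genome had 2.80% and 1.66%. The window from 245000001 held 3 mitotic-only and 5 asynchronous-only regions. The highest-ranked mitotic-only region, from 246823885 to 246824175, had 17 and 18 fragments and a percentile of 79.7 or more in each mitotic list. The highest-ranked asynchronous-only region, from 245873151 to 245873990, had 18 and 16 fragments and a percentile of 86.1 or more in each asynchronous list. Near the HNRNPU position, a mitotic-only region with 23 and 23 fragments, from 244265565 to 244265944, lay 824 bases from an asynchronous-only region with 28 and 19 fragments, from 244266769 to 244267448. In their window the caller's local background reached up to 8.72 and 9.45 times the genome background in mitotic and 9.39 and 7.60 times in asynchronous libraries, the highest of the interval's windows.

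Properties of the peaks were compared between 1q44 and the stretch before it within each library, by an exact two-sided sign-flip permutation test over the 4 libraries. The smallest possible p of that test is 0.125, so no difference can reach 0.05. None of the properties is itself a difference between cell states. However, the share of peaks in regions found in all 4 libraries needs a peak in both states. That share is thus not separate from the contrast that chose the interval, and nothing is read from its p. The share of peaks in the strongest 10% of the list was lower in 1q44 in 4 of 4 libraries. It was 10.2% and 8.85% in mitotic and 9.91% and 8.79% in asynchronous libraries in 1q44, against 12.1% and 11.6%, and 11.3% and 11.0%, in the stretch before. The mean difference was -2.04 ± 0.589 percentage points (SD, n = 4; exact p = 0.125, 0.5 after Benjamini-Hochberg adjustment over 5 such comparisons).

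The other 4 properties differed by less than the spread between libraries or in both directions. Summit density was 28.8 and 44.3 per Mb in mitotic and 43.5 and 35.7 in asynchronous libraries in 1q44, against 29.3 and 46.4, and 40.3 and 29.5, in the stretch before. The mean log2 ratio was 0.07 ± 0.15 (SD, n = 4; exact p = 0.5), with 2 of 4 libraries higher in 1q44. Without asynchronous replicate 4 it was 0.0070. Up to the last region found in all 4 libraries, which leaves out the distal 1.21 Mb with few summits, the log2 ratio was 0.44; that limit was set after seeing the summits, so it is given with no test. Median peak width differed by 10.3 ± 18.1 bp (exact p = 0.375), at 315 ± 27.2 bp in 1q44 and 305 ± 19.6 bp in the stretch before (SD, n = 4 each). The median summit height differed by -0.28 ± 0.40 times the genome background (exact p = 0.5). Of the peaks, 29.3% and 18.6% in mitotic and 19.4% and 23.6% in asynchronous libraries lay in regions found in all 4 in 1q44. In the stretch before, 28.1% and 18.1%, and 21.4% and 28.7%, did so (mean difference -1.36 ± 2.84 points, SD, n = 4; exact p = 0.5). The adjusted p was 0.5 for all 5 properties.

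**Figure D4:**
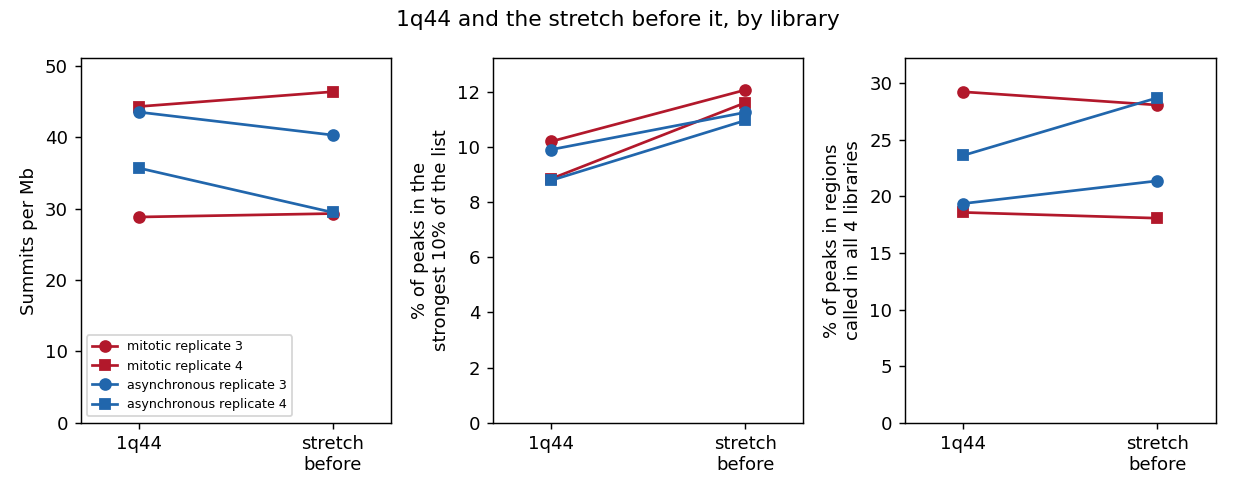
Each line joins a library's value in 1q44 (left) and in the stretch of chromosome 1 before it (right), for summits per Mb, the percentage of peaks in the strongest 10% of the list and the percentage of peaks in regions found in all 4 libraries. In 4 of 4 libraries a smaller percentage of the 1q44 peaks was in the strongest 10%, while the other measures go both ways.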

How the data were processed

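The submitters' processing notes name MACS2, Bowtie2, fastp and bedtools, and the build hs1. They give no settings here, nor whether the caller had a control library or the spike-in was used for scaling. Each library has a narrowPeak file of its own, deposited by the authors, with peaks called separately. The fold at a summit is the authors' deposited ratio to their caller's local background, given with the deposited -log10 p and -log10 q, the q values starting just above 1. The deposited score was not used.

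A peak was placed by its summit, and its whole width was counted there. Summit fragments were solved from the deposited fold and p. All summits under 200 fragments came out whole within 0.05. Coverage was scaled to the library's nuclear covered length, and log2 differences of bins used a pseudocount of 10. Regions are peaks of the 4 lists sharing at least 1 bp. Python 3.11.15, numpy 2.4.6, pandas 2.3.3 and scipy 1.17.1 were used, and the recovery of fragments was tested on simulated data. Bins named are the 5 lowest and up to 5 highest without group overlap, and regions named are the 10 with the highest mean rank. The planned comparison of gene starts and genes was not made, since hs1 gene positions were not used here. Members, lists and measures were chosen with earlier results of these data known.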

Additional observations from a re-analysis of the deposited data

How the results depend on the processing

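No paired analysis was possible because the comparison of cell states comes from no test or fit that could hold a replicate block, and nothing says that the numbers mark a shared culture or day. As values, the interval's scaled coverage difference was -0.31 log2 units within replicate 3 and -0.25 within replicate 4. Without scaling, the sign differed between the replicate numbers, at -0.63 and 0.54 for coverage and -0.59 and 0.31 for summits. The unscaled mean coverage was 73.8 kb in mitotic and 73.5 kb in asynchronous libraries. As differences of group mean log2 values, the interval's coverage and summit differences (-0.28 and -0.26 log2 units) kept their sign in every alternative run. They were -0.079 and -0.056 at a -log10 q of at least 5, -0.044 and -0.14 without scaling, and -0.11 and -0.14 without the window from 245000001, an alternative added after seeing the data. Leaving out 1 library gave -0.37 to -0.19 for coverage and -0.31 to -0.20 for summits. In the window from 245000001 the coverage difference of -0.71 was -0.47 without scaling, and -0.87 to -0.55 with 1 library left out; these were also added later. Bins with both mitotic libraries lower numbered 12 of 38, 7 without scaling, 8 of 27 at the stricter threshold, 13 by summits and 19 of 66 at 50 kb. Besides the share given above for the main setting, the genome's lower shares were 16.1% at the stricter threshold, 17.98% by summits and 16.1% at 50 kb. Bins with both higher numbered 4 of 38, 7 of 27 at the stricter threshold, 2 by summits and 7 at 50 kb. In the same order, the genome's higher shares were 17.9%, 17.4%, 15.2% and 17.6%. With 1 library left out there were 15 to 21 lower and 7 to 8 higher bins, where a group of 1 library separates more easily. The genome's shares were then 30.5% to 33.8% lower and 32.4% to 36.8% higher. Without scaling, 3 bins had both mitotic libraries higher, and the genome's shares were 6.25% lower and 22.3% higher. Regions in all 4 libraries numbered 42, against 21 with a reciprocal overlap of 50% and 20 at the stricter threshold. With 1 library left out, 43 to 57 regions were in all the remaining libraries, which is a looser demand. The 5 comparisons with the stretch before kept their sign, but not their size. At the stricter threshold summit height differed by -2.21 ± 0.67 times the background, the share in the strongest 10% by -6.55 ± 3.22 points, the share in regions found in all 4 by -7.24 ± 5.26 points and width by 24.8 ± 22.5 bp (SD, n = 4). With 1 library left out, height was -0.38 to -0.093, width 5.17 to 17.7 bp, density 0.0070 to 0.12, the share in all 4 was -2.20 to -0.11, the value nearest 0 being without asynchronous replicate 4, and the share in the strongest 10% was -2.27 to -1.80. Equal list lengths and a common smallest peak width moved the interval's coverage and summit differences by less than the replicate spread. With equal list lengths the share in the strongest 10% differed by -2.64 ± 1.55 points (SD, n = 4). Bins then numbered 14 lower and 5 higher of 38, where 16.7% and 18.0% of the genome's bins were so. Weak summits of about 10 fragments limit what these lists can show.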
